A study of Mus musculus with 12 samples.

Results

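Expression of 9 regulators and surface markers of haematopoietic progenitor cells was examined in monocytes from bone marrow (BMDM) and microglia from brainstem (BSM): the transcription factors Tal1, Lmo2, Gata2, Runx1, Erg, Myb and Sox4, and the surface proteins Cd34 and Cd93. Genes were found by their symbol, or an older alias of it, in the annotation of the array. Of the 9, 8 were measured among the 18430 genes of the table summarised with Aroma, and all 9 among the 14847 genes of the table summarised with Expression Console (EC), a second program run on the same arrays. Gata2 was named in the EC table only and is given from there. Each measured member had 1 row, so no choice between rows was needed.

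Both cell types came from C57BL/6 mice aged 6 weeks, for which the labels give no treatment of the animals and no modified allele. BMDM were sorted from bone marrow as CD11b+ CD45high CD115+ Ly6G- cells, and BSM from dissociated, Percoll-enriched brainstem as CD11b+ CD45low CD115low Ly6G- cells. Each of the 6 Affymetrix Mouse Exon 1.0 ST arrays, 3 per cell type, was hybridised with amplified RNA from its own pool of sorted cells, collected from several mice. Replicate 1 of each cell type was female and replicates 2 and 3 were male, per the labels. Values are log2 expression values, and differences are BSM minus BMDM. In such bulk samples fewer cells of a type and less RNA per cell cannot be told apart. The files hold no detection call, so the value of a dim gene includes background.

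The Tal1 protein, a basic helix-loop-helix factor, binds DNA with E proteins and is joined by the bridging protein Lmo2, by Ldb1 and by GATA factors, and this complex is required for blood cells to form. Runx1, Erg and Myb are further factors on which haematopoietic stem cells depend, and each lies in a family of related genes. Cd34 and Cd93 are surface glycoproteins used to sort progenitors, and both are also made by endothelial cells.

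The labels of the cells were checked first. Of 10 microglia markers 9 were measured, and all 9 were higher in BSM (median log2 difference 6.43). Among them Sall1, a transcription factor of microglia, read 4.6, 4.64 and 4.66 on the BMDM arrays and 10.67, 10.68 and 10.78 on the BSM arrays. All 9 measured monocyte markers of a list of 10 were lower in BSM (median -6.75), Ccr2 among them. Of the sort markers, Itgam (CD11b) was higher in BSM by 0.88 and Ptprc (CD45) lower by a log2 difference of -0.49. Transcripts of Csf1r, which encodes CD115, were higher in BSM (1.98, adjusted p = 1.4e-06), whereas the gate took CD115low cells. Ly6g, the marker of the excluded granulocytes, read 3.90, 4.82 and 5.79 in BMDM and between 3.52 and 3.55 in BSM. Arrays correlated at 0.983 to 0.992 within a cell type and at 0.855 to 0.870 between cell types (Pearson's r across genes, which are not independent).

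The progenitor genes did not move as 1 group. Tal1, Lmo2, Runx1, Sox4 and Cd34 were higher in BSM, and Erg, Myb and Cd93 were lower, so that all 8 members of the Aroma table passed the test (limma, adjusted p at most 0.05). That count has to be read against a table in which 50.6% of all genes passed, that is 28.4% of all genes higher and 22.3% lower in BSM. The arrays of the cell types did not overlap for any of the 8, as was also the case for 62.4% of all genes. The median difference of the 8 was 0.53, beside 0.17 for all genes, and when each array was centred on its median the shares of all genes called changed to 15.1% higher and 27.4% lower. In the EC table, where 34.3% of genes passed (9.21% higher, 25.1% lower), 6 of the 9 passed: Tal1, Sox4 and Cd34 higher, and Erg, Myb and Cd93 lower. Both tables rest on the same arrays, so the EC values are a check of processing and not of new samples.

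**Figure D1:**
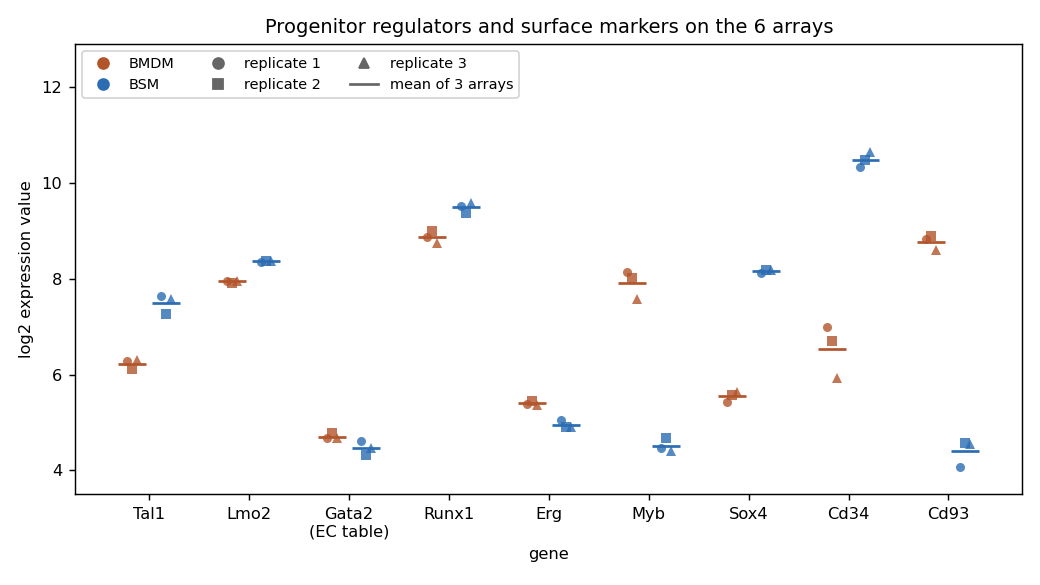
Log2 expression value (y axis) of the 9 genes (x axis) on each array, with symbols for the replicates, colours for the cell types and a line at the mean of 3 arrays. Gata2 is from the EC table and the others are from the Aroma table; the cell types lie far apart for Myb, Sox4, Cd34 and Cd93 and close together for Lmo2, Gata2, Runx1 and Erg.

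The stretches around the annotated starts of Cd34, Sox4 and Myb are shown because these 3 genes and Cd93 had the largest differences; Cd93 and Lmo2 had no entry in the promoter table. The other 7 members had 12 entries among 32851 promoters (RefSeq, GRCm38.p6), each with 250 bases before and 50 after the start. Capitals mark letters that match, on either strand, the core motifs GATAA (GATA factors), CAGCTG (an E-box, bound by Tal1 with its partners), GGAAG (ETS factors such as Erg), TGTGGT (RUNX), AACGG and AACTG (MYB) or AACAAAG (SOX). These letters occurred in 25.4%, 16.3%, 71.4%, 16.8%, 17.4%, 44.8% and 5.9% of all promoters, in that order. The Cd34 stretch lies at chr1:194938571-194938870 on the plus strand, that of Sox4 at chr13:28953650-28953949 on the minus strand and that of Myb at chr10:21160935-21161234 on the minus strand.
Cd34: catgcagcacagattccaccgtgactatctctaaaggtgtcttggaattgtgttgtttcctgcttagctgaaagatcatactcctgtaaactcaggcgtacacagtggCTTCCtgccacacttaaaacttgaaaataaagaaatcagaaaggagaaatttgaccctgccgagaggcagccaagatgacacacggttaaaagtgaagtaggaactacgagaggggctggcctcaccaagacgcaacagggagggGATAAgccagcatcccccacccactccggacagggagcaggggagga
Sox4: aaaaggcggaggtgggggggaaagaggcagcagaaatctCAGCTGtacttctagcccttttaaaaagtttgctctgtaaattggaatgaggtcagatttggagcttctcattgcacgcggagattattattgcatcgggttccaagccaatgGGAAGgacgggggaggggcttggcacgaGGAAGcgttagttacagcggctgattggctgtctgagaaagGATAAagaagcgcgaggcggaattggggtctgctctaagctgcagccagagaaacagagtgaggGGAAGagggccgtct
Myb: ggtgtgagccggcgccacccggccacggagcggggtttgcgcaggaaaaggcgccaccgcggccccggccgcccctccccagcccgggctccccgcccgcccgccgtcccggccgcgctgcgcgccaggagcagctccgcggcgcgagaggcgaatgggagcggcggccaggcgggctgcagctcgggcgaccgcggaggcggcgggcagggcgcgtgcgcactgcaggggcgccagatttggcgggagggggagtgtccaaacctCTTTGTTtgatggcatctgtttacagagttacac
The Cd34 stretch held 1 GATAA, which starts at base 4 of the transcript, and 1 GGAAG on the opposite strand. That of Sox4 held 1 GATAA at position -29 from the start, 1 CAGCTG at -211 and 3 matches of GGAAG. In the Myb stretch the only match was 1 AACAAAG on the opposite strand. Its G and C content was 75.0%, against 50% in Cd34, 52% in Sox4 and a median of 52.7% over all promoters. No match overlaps another in these stretches. A match describes the letters only; no binding was measured here.

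Tal1 differed more than the other members of the blood-forming complex, Lmo2 and Gata2. Its values were 6.28, 6.11 and 6.30 on the BMDM arrays and 7.64, 7.26 and 7.58 on the BSM arrays. Every BSM array lay above every BMDM array, and replicate 2 was the lowest array of both cell types. The mean rose from 6.23 ± 0.10 in BMDM to 7.50 ± 0.20 in BSM (SD, n = 3), a 2.40-fold difference (log2 difference 1.27, SE 0.13, adjusted p = 7.2e-05). In the EC table the difference was smaller at 0.71 (SE 0.13, adjusted p = 0.0099).

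Lmo2, the protein that bridges Tal1 and GATA factors, differed little. It read 7.96, 7.91 and 7.96 in BMDM and 8.35, 8.38 and 8.38 in BSM. The arrays of either cell type hardly varied, and the gap between the types was narrow but without overlap. The difference was 0.43 (SE 0.09, 1.35-fold higher in BSM, adjusted p = 0.0048). It was not called after median centring (0.24, adjusted p = 0.090) or in the EC table (0.17, adjusted p = 0.24), where BMDM replicate 1 and BSM replicate 1 both read 8.40, and it was 0.67 after a second quantile normalization.

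Gata2, the GATA factor of stem and progenitor cells, was dim in both cell types in the EC table. Its values were 4.67, 4.77 and 4.67 in BMDM and 4.62, 4.31 and 4.47 in BSM. The BSM arrays lay just below the BMDM arrays, with BSM replicate 1 nearest to them. The difference of -0.23 (SE 0.11, 95% confidence interval -0.50 to 0.03) did not pass the test (adjusted p = 0.18, and 0.074 to 0.43 over the alternatives).

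Genes that encode partners of this complex also went both ways. Ldb1, which holds Lmo2 in the complex, was higher in BSM by 0.92 (SE 0.09, adjusted p = 7.0e-05). Among the E proteins Tcf3 was lower (-0.59, adjusted p = 0.0012), Tcf4 was higher (1.42, adjusted p = 1.0e-05) and Tcf12 did not pass (0.25, adjusted p = 0.070). Cbfa2t3, a corepressor known to join Tal1 complexes, was lower by a log2 difference of -1.07, and the GATA cofactor Zfpm1 was higher by 1.09. The erythroid factor Gata1 read 4.77 ± 0.06 in BMDM and 5.01 ± 0.20 in BSM and did not pass (adjusted p = 0.14).

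Relatives of Tal1 and Lmo2 did not follow them. Lyl1, the helix-loop-helix gene closest to Tal1, read 10.22, 10.33 and 10.27 in BMDM and 9.84, 9.96 and 10.26 in BSM. The cell types overlapped and the difference of -0.25 did not pass (adjusted p = 0.13). Lmo4 and Lmo1, LIM-only genes related to Lmo2, were lower in BSM by log2 differences of -1.59 and -1.45. Measured within each array, the log2 gap between Tal1 and Lyl1 changed by 1.52 and that between Lmo2 and Lmo4 by 2.02 from BMDM to BSM. These and the pairs given further on, 6 in all, were chosen after their values were seen; an exact two-sided permutation test gave p = 0.1 for each (adjusted p = 0.1), the smallest that 3 arrays against 3 allow, so none could pass and the changes are descriptions.

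Runx1, the DNA-binding subunit of core-binding factor, was the only one of the 3 Runx genes that was higher in BSM in the Aroma table. It read 8.88, 8.99 and 8.74 in BMDM and 9.51, 9.37 and 9.59 in BSM. The lowest BSM array exceeded the highest BMDM array, and BMDM replicate 3 was lowest of all 6. The difference was 0.62 (SE 0.11, 1.54-fold, adjusted p = 0.0021) in the Aroma table. It was 0.29 (SE 0.12) and not called in the EC table (adjusted p = 0.12).

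Runx3, by contrast, read 7.33 ± 0.10 in BMDM and was lower at 5.47 ± 0.15 in BSM (difference -1.86, adjusted p = 3.6e-06). Runx2 was lower by a log2 difference of -0.63 (adjusted p = 0.0011). Cbfb, the subunit that all Runx proteins bind, was lower as well (-0.82, SE 0.10, adjusted p = 0.00025). The gap between Runx1 and Runx3 within an array changed by 2.48 and that between Runx1 and Runx2 by 1.25.

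Erg, an ETS factor of stem cells and endothelium, was dim in both cell types and a little lower in BSM. It read 5.38, 5.45 and 5.36 in BMDM and 5.05, 4.90 and 4.91 in BSM, without overlap. These values lay near the medians of the BMDM arrays (5.42 to 5.50) and below those of the BSM arrays (5.61 to 5.70). Background makes up part of such values. The difference was -0.44 (SE 0.10, 1.36-fold, adjusted p = 0.0060) and in the EC table -0.63 (adjusted p = 0.011). Fli1, the ETS gene nearest to Erg, was higher in BSM by 0.45 in the Aroma table (adjusted p = 0.0045) and not called in the EC table (0.21, adjusted p = 0.22), where its arrays overlapped. Other ETS genes were higher in BSM by more: Ets1 read 5.50 ± 0.17 in BMDM and 8.45 ± 0.08 in BSM (log2 difference 2.95, adjusted p = 2.7e-07), and Ets2 was higher by 1.68. Etv6 was lower (-0.45), and so was Spi1, which encodes the myeloid ETS factor PU.1 (-0.47).

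Myb, which keeps progenitors dividing, was among the members with the largest differences. It read 8.13, 8.01 and 7.57 on the BMDM arrays and 4.46, 4.67 and 4.40 on the BSM arrays. The cell types were far apart, and BMDM replicate 3 was the lowest of its group. Its mean fell from 7.90 ± 0.30 to 4.51 ± 0.14, which is 10.5-fold lower in BSM (log2 difference -3.39, SE 0.16, adjusted p = 6.9e-07; -3.61 in the EC table). The related genes fell too, Mybl2 from 7.61 ± 0.20 to 4.75 ± 0.08 (-2.87, adjusted p = 4.3e-07) and Mybl1 by a log2 difference of -1.71.

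Genes of cell division moved in the same direction as Myb. Of 14 such genes 12 were measured and all 12 were lower in BSM (median -4.19), led by Top2a (-6.74), Mki67 (-5.98), Ube2c (-5.77) and Ccna2 (-5.46). Their summed linear level was 9912 to 11833 on the BMDM arrays and 999 to 1174 on the BSM arrays. The genes whose 6 values, centred on their mean, lay nearest to those of Myb were 4930562F07Rik, Uhrf1, a protein that maintains DNA methylation through replication, and Pxylp1, at root mean square distances of 0.089, 0.11 and 0.12 on the log2 scale.

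Sox4, an SRY-box factor of lymphoid progenitors and of the developing nervous system, showed the opposite difference. It read 5.42, 5.57 and 5.63 in BMDM and 8.11, 8.19 and 8.18 in BSM. The 3 BSM arrays nearly coincided and lay well above all BMDM arrays. Sox4 was 6.14-fold higher in BSM (5.54 ± 0.11 against 8.16 ± 0.04, log2 difference 2.62, SE 0.10, adjusted p = 2.1e-07), and the EC table gave 2.43. Its BMDM values lay near the medians of those arrays, where background makes up part of the value. With 16 added before the log the difference was 2.27. The related genes Sox11 and Sox12 did not pass (0.08 and 0.27, adjusted p = 0.57 and 0.10).

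Genes nearest to Sox4 in pattern over the 6 arrays were Nfia, a nuclear factor I gene, Cd86, a costimulatory surface protein, and Bend6, at distances of 0.034, 0.045 and 0.052. Markers of neurons and neural progenitors, a class in which Sox4 is also used, mostly did not pass: of 11 measured, 2 were higher (Nes 0.87, Snap25 0.70), 2 were lower (Tubb3 -0.38, Gad1 -0.36; 0 without BMDM replicate 3) and 7 were not called. Of 11 measured in the EC table, 1 was higher and 0 were lower, so the lower calls of Tubb3 and Gad1 did not hold there. Snap25 and Gad1 had an adjusted p of 0.10 and 0.92 in that table. The summed linear level of these markers in the Aroma table was 284 to 294 on the BMDM arrays and 308 to 335 on the BSM arrays. Their part in the Sox4 result was not tested.

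Cd34, a sialomucin of stem cells and endothelium, was the member with the largest difference towards BSM. It read 6.99, 6.70 and 5.92 on the BMDM arrays and 10.33, 10.48 and 10.65 on the BSM arrays. The BSM arrays lay close together and the BMDM arrays were spread, with replicate 3 the lowest. The means were 6.54 ± 0.55 in BMDM and 10.49 ± 0.16 in BSM, a 15.5-fold difference (log2 difference 3.95, SE 0.25, adjusted p = 3.9e-06; 3.60 in the EC table). Without BMDM replicate 3 the difference was 3.65 (SE 0.15, adjusted p = 2.1e-06).

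Podxl and Podxl2, sialomucins of the same family as Cd34, were higher in BSM by 0.58 (adjusted p = 0.0034) and 0.66 (adjusted p = 0.0013) in the Aroma table. Neither was called in the EC table (0.19, adjusted p = 0.23, and 0.37, adjusted p = 0.13). From BMDM to BSM the gap between Cd34 and Podxl within an array changed by 3.37. The nearest patterns to that of Cd34 were those of Lair1, an inhibitory collagen receptor, Tmcc3 and Snx24, a sorting nexin, at distances of 0.19, 0.20 and 0.24.

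Cd93, a C-type lectin-like glycoprotein of progenitors, monocytes and endothelium, had the largest difference of the members in the Aroma and EC tables, although Cd34 exceeded it in size among the male pools and with 16 added before the log. It read 8.83, 8.89 and 8.59 in BMDM and 4.06, 4.58 and 4.54 in BSM. No BSM array came near a BMDM array. It was 20.8-fold lower in BSM (8.77 ± 0.16 against 4.40 ± 0.29, log2 difference -4.38, SE 0.16, adjusted p = 1.5e-07), and -4.98 in the EC table. Its BSM values, like those of Myb, lay below the median of those arrays, where background makes up part of the value, so the fold depends on how background is treated: with 16 added before the log the difference was -3.61 for Cd93 and -2.72 for Myb. Thrombomodulin, encoded by Thbd in the same protein family, fell from 7.85 ± 0.22 to 4.94 ± 0.24 (-2.91, adjusted p = 1.7e-06).

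Clec14a, an endothelial relative of Cd93, was higher in BSM by 0.69 in the Aroma table (adjusted p = 0.015), but in the EC table its difference was -0.22 and not called (adjusted p = 0.27). Cd248 did not pass (adjusted p = 0.99). Within an array the gap between Cd93 and Clec14a changed by -5.07 in the Aroma table. Papss2, an enzyme that makes the sulfate donor of the cell, Sema4a, a semaphorin, and H2ax, a histone variant marked at DNA breaks, lay nearest to Cd93 at distances of 0.12, 0.13 and 0.18.

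Most markers of endothelium, in which Cd34, Cd93, Erg and Tal1 are also used, did not pass. Of 17 endothelial and mural markers 14 did not pass, Kdr (0.93) and Sox17 (0.42) were higher and Flt1 (-1.44) was lower. The defining markers read 4.30 to 4.65 in BMDM and 4.44 to 5.04 in BSM for Cdh5, and 3.68 to 3.90 and 3.38 to 4.05 for Cldn5. Their summed linear level was 799 to 858 on the BMDM arrays and 905 to 980 on the BSM arrays, and their part in the members' differences was not tested. Slc2a1, the brightest of the 17, made up the largest part of these sums. It read 8.27 to 8.39 in BMDM and 8.42 to 8.88 in BSM and did not pass (0.33, adjusted p = 0.069). In the EC table and after median centring only 1 of the 17 was higher, and Sox17 was not called in the EC table (adjusted p = 0.50).

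The wider set of partners and paralogs, which holds the relatives named above, had 29 measured genes. Of these 10 were higher (34.5%), 12 lower (41.4%) and 7 did not pass, beside 28.4% higher and 22.3% lower over all genes. The median was 0.08, beside 0.17 for all genes. The median became -0.11 after median centring and -0.22 in the EC table, where 4 of 27 were higher and 11 lower. Ets1, Thbd, Mybl2 and Runx3 had the largest differences.

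Other regulators of progenitors also went both ways. Of 22 measured, 8 were higher (36.4%), 4 lower (18.2%, and 2 without BMDM replicate 3) and 10 did not pass. Those shares lay near the 28.4% higher and 22.3% lower of all genes, and the median of 0.16 lay near 0.17. Egr1, an immediate early gene, read 6.49, 6.28 and 5.70 in BMDM and 12.28, 11.32 and 12.29 in BSM (log2 difference 5.81, SE 0.29, adjusted p = 1.0e-06). Ikzf2, an Ikaros family gene, was higher by 1.94, while Nfe2, a factor of the megakaryocyte and erythroid lineages, was lower by a log2 difference of -4.39 and Bcl11a, a factor of lymphoid progenitors, by -2.18. Among stem cell factors Msi2 (1.21, adjusted p = 1.6e-05), Bmi1 (1.01, adjusted p = 0.00028) and Hlf (0.88, adjusted p = 0.00026) were higher in BSM, in the EC table too. Hlf was dim, at 4.49 to 4.60 in BMDM and 5.27 to 5.56 in BSM, below the medians of those arrays. Meis1 (-0.11), Hoxa9 (-0.13) and Mecom (0.16) did not pass (adjusted p = 0.51, 0.41 and 0.21).

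Among 17 other surface markers of progenitors 6 were higher in BSM (35.3%), 8 lower (47.1%) and 3 did not pass. Over all genes the shares were 28.4% higher and 22.3% lower. The receptor of stem cell factor, Kit, read 6.20, 6.34 and 5.58 in BMDM and 4.70, 4.71 and 4.60 in BSM, and the cytokine receptor Flt3 read 7.08, 6.91 and 6.25 in BMDM and 4.86, 4.77 and 4.89 in BSM. Both were lower in BSM (-1.37, adjusted p = 0.00046, and -1.91, adjusted p = 9.0e-05), in the direction opposite to that of Cd34. Spn, the sialomucin CD43, was lower by a log2 difference of -4.16 and Ly6a, which encodes Sca-1, by -2.09. Il7r, the interleukin 7 receptor, and Eng, a coreceptor for TGF-beta family ligands, were higher by 4.05 and 2.3.

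**Figure D2:**
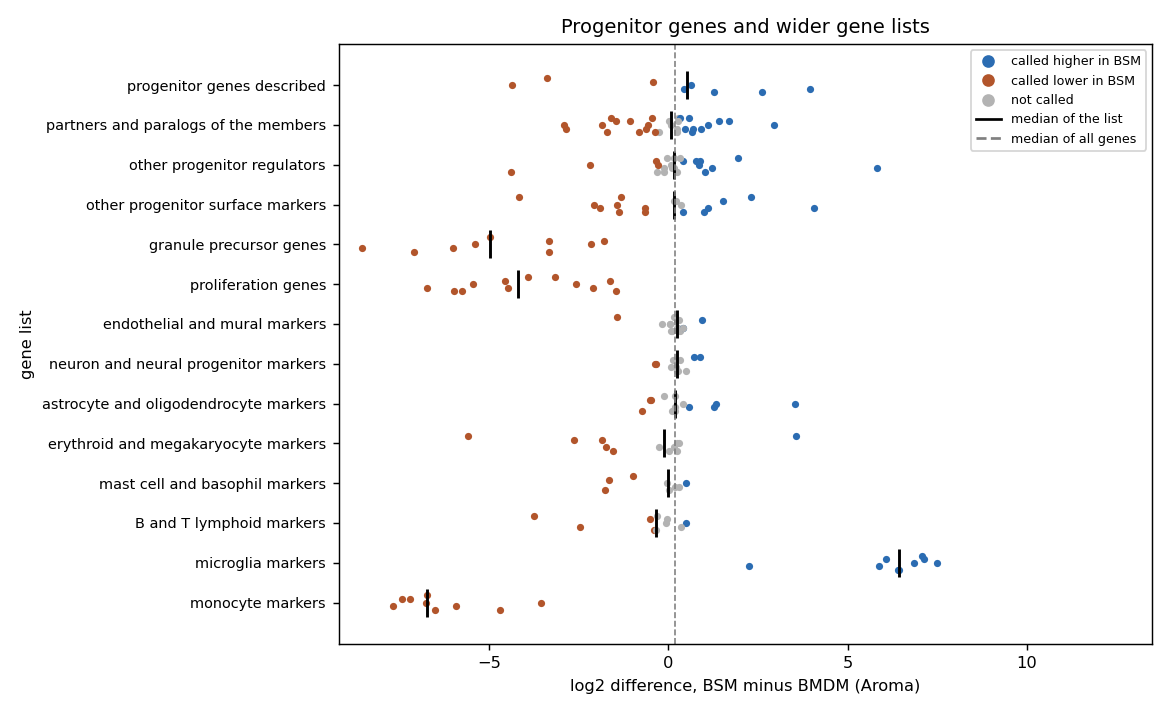
Log2 difference, BSM minus BMDM (x axis, Aroma table), of each measured gene in the progenitor set and in 13 wider lists (y axis), coloured by the limma call, with the median of each list as a black bar and that of all genes as a dashed line (0.17). The progenitor set is spread from -4.38 to 3.95, whereas granule precursor, proliferation and monocyte genes lie only on the BMDM side and microglia markers only on the BSM side.

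BMDM replicate 3 was the lowest BMDM array for Cd34, Myb, Cd93, Runx1 and Erg, 5 of 8 members (62.5%), while it was the lowest for 31.2% of all genes. It was also lowest for Kit and Flt3, for 10 of 12 proliferation genes and for 6 of 9 granule precursor genes. Mpo, the myeloperoxidase of early granules, read 12, 11.82 and 11.09 on the 3 BMDM arrays, and cathepsin G (Ctsg) read 10.39, 10.18 and 9.02. Ltf and Camp, which encode proteins of late granules, ran the other way. Ltf read 6.11, 6.59 and 7.52 and Camp 8.35, 8.82 and 9.12, both highest on replicate 3, as was Ly6g. Cebpe and Fcnb of the same list were lowest on replicate 3, and Chil3 hardly varied. The part of granule-forming cells in the members' values was not tested.

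**Figure D3:**
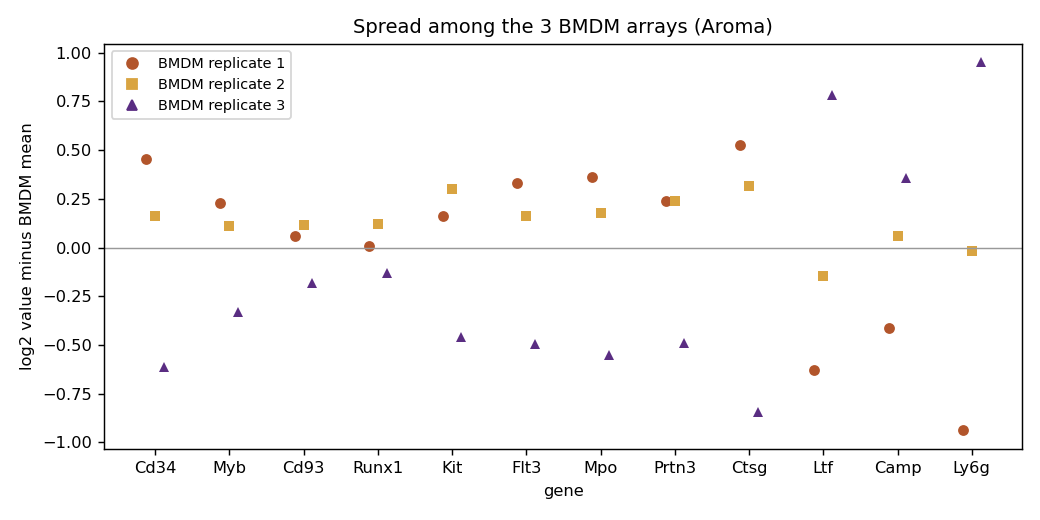
Log2 value minus the BMDM mean (y axis) on each of the 3 BMDM arrays for 4 members and 8 other genes (x axis). Replicate 3 lies below the other BMDM arrays for Cd34, Myb, Cd93, Runx1, Kit, Flt3, Mpo, Prtn3 and Ctsg and above them for Ltf, Camp and Ly6g.

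Granule precursor genes were lower in BSM together with Myb and Cd93. All 9 measured of 11 were lower (median -4.99), led by Chil3 (-8.55), Mpo (-7.10), Prtn3 (-6.01) and Ctsg (-5.40), and their summed linear level was 11876 to 15441 in BMDM and 283 to 340 in BSM. Chil3, the brightest of the 9 in BMDM, read 12.23, 12.23 and 12.24 there. It made up a large part of these sums and did not share the lower replicate 3 value of Mpo. Leaving out BMDM replicate 3, the BMDM array with the lowest of these sums (11876), changed none of the 8 members' calls. That keeps the BMDM arrays with the higher sums, so it cannot show what part these precursors have. The part of these precursors in the Myb and Cd93 differences was not tested.

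Tal1, Lmo2 and Gata2 are known to act in erythroid cells and megakaryocytes. Markers of these cells summed to 5779 to 8431 on the BMDM arrays and 850 to 995 on the BSM arrays. Most of the BMDM sum came from 1 gene, Hbb-b1, which read 12.29, 12.60 and 12.91 there and 5.92, 7.89 and 7.20 in BSM. Of 12 markers measured, 5 were lower, with Hbb-b1 (-5.60), Ppbp (-2.65) and Slc4a1 (-1.85) in front. Gp9 (3.55) was higher and 6 did not pass. Of 8 markers of mast cells and basophils, which express Gata2, 3 were lower (Hdc -1.77, Mcpt8 -1.65, Prss34 -0.98) and 1 was higher (Tpsb2 0.50). Tpsb2 was dim at 3.94 to 4.73, and 0 of the 8 were called higher after median centring or a second quantile normalization. The sums of the 8 markers were 273 to 394 in BMDM and 172 to 196 in BSM. What part erythroid cells, megakaryocytes, mast cells and basophils have in the members' values was not tested.

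Among 10 B and T lymphoid markers, 4 were lower, among them Nkg7 (-3.76) and Cd79a (-2.46; 2 were lower without BMDM replicate 3 and 7 after a second quantile normalization), and 1 was higher (Cd79b 0.48, not called in the EC table), with sums of 1026 to 1305 in BMDM and 707 to 769 in BSM. Most of the gap between these sums came from Nkg7, which read 8.13 to 9.37 in BMDM and 4.92 to 5.27 in BSM. Cd79b was the brightest of the 10 in BSM, at 8.86 to 9.08. Markers of astrocytes and oligodendrocytes summed to 585 to 649 in BMDM and 777 to 803 in BSM. Of 13 measured, 4 were higher, led by the glutamate transporter Slc1a3 (3.53), Mag (1.33) and Aqp4 (1.26). The gap between the sums came from Slc1a3, which read 4.12 to 4.20 in BMDM and 7.55 to 7.75 in BSM. Another 3 were lower, among them Mbp (-0.74, not called in the EC table), while the astrocyte marker Gfap did not pass (0.17, adjusted p = 0.32). The part of these cell types in the members' differences was not tested.

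The pools of the 2 sexes gave the same direction for all 8 members. In replicate 1, the female pools, the difference was 3.34 for Cd34 and -4.77 for Cd93; in the male pools it was 4.26 and -4.18. A limma term for sex by cell type did not pass for Cd34 (0.91 larger in males, adjusted p = 0.75), Cd93 (adjusted p = 0.70) or any other row of the Aroma table, of which 1551 had an unadjusted p at most 0.05. That test rests on 1 female pool per cell type, assumed to vary like the male pools, so it has little power and does not show that the sexes were alike. The pools of replicate 1 were also used for the RNA-seq of the study, whereas replicates 2 and 3 came from additional sets of pools. Sex, replicate 1 and set cannot be told apart.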

How the data were processed

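Each of the 6 arrays appears among the 12 GEO samples once per program, and the 2 tables were kept apart. The authors deposited gene-level linear intensity values from Aroma, after RMA background correction and quantile normalization followed by a log-additive model of the probes. They also deposited log2 values per transcript cluster from Expression Console (RMA). The submitters' processing notes list mm9 and also Partek, which was not used here. Columns of per-sample values that went unused numbered 0. The median log2 value of an array was 5.42 to 5.50 in BMDM and 5.61 to 5.70 in BSM, in the Aroma table. The number of arrays limits the precision.

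Intensities were converted to log2. Rows were named through the platform annotation, with older symbols updated through RefSeq names of GRCm38.p6. Of 21837 Aroma rows, 18821 had 1 symbol, 763 several and 2253 none; of 23332 EC rows the numbers were 14996, 1019 and 7317. Of several rows of a gene the one with the highest mean was kept. Differences were tested two-sided with limma 3.58.1 under R 4.3.3 (lmFit, eBayes), without covariate or filter, with Benjamini-Hochberg adjustment over all rows of a table and a threshold of 0.05. The scripts had been tested on simulated data. P-values measure the spread between pools of sorted cells.

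Members, gene lists and tests were chosen with earlier results of these data known. Named are the members, up to 4 called genes with the largest differences in each list, partners by role, sort markers and, for members with a log2 difference of at least 2 in size, the 3 nearest patterns. Other named genes were picked after seeing their values. The alternatives tried were a replicate block, sex as a covariate, arrays of 1 sex, leaving out each array, a filter on dim rows, median centring, quantile normalization again, array weights, eBayes with trend and robust settings, all rows of a gene averaged, 16 added before the log, the EC table, the methods' t-test and an analysis of variance. EC rows with 1 symbol, and the gene lists without BMDM replicate 3, were added after seeing the data.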

Additional observations from a re-analysis of the deposited data

How the results depend on the processing

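No member changed direction under any alternative run. In the EC table, with or without rows of several symbols, Lmo2 (0.17) and Runx1 (0.29) were no longer called, which left 3 members called higher in place of 5; median centring left Lmo2 at 0.24 and uncalled. Replicate 1 alone, with no test, gave 0.39 for Lmo2, -0.33 for Erg, 3.34 for Cd34, -4.77 for Cd93 and -0.05 for Gata2 (EC table). The cause of these changes was not tested. Leaving out each array in turn kept every call and gave 1.19 to 1.38 for Tal1, 0.41 to 0.44 for Lmo2, 0.56 to 0.68 for Runx1, -0.49 to -0.42 for Erg, -3.56 to -3.28 for Myb, 2.56 to 2.66 for Sox4, 3.65 to 4.18 for Cd34, -4.47 to -4.21 for Cd93 and -0.31 to -0.16 for the uncalled Gata2. With the replicate block the differences were the same (Cd34 3.95, adjusted p = 3.6e-05, and Erg -0.44, adjusted p = 0.018) and 5 members stayed higher and 3 lower. The same numbers in both cell types are not stated to pair the pools, so the main fit had no block. Deviations of same-numbered arrays correlated at r of 0.065, 0.0021 and 0.011. Shared mice need not shift the same genes in both cell types, so these values cannot show whether the pools were paired. Over all genes, calls higher in BSM numbered 5226, but 2784 after median centring and 1367 in the EC table, and calls lower numbered 4108, 5044 and 3725. The filter on dim rows left Erg and Gata2 without a value. With a difference as small as that of Lmo2 or Gata2, 3 arrays per cell type and the choice of scaling limit the reading.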
